A study of Rattus norvegicus with 6 samples.

Results

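The unfolded protein response genes were examined in primary liver sinusoidal endothelial cells, the fenestrated lining cells of the liver's capillaries, at raised and at normal pressure. A list of 32 genes was taken by symbol from the 32623 genes of the deposited tables, and all 32 were found once each. The list was divided into an ATF6/XBP1 chaperone arm of 22 genes, an ATF4/CHOP arm of 7 genes and 3 stress sensors. The cells came from Han Wistar rats of unstated age and sex. A perfused device called Exoliver held them in co-culture with the other main cells of the liver (hepatocytes, macrophages and stellate cells), under 1.15 dyn/cm2 of shear stress over 48 h. Pathological libraries came from cultures at 12 mmHg and physiological libraries from cultures at 1 mmHg, with 3 libraries each. Both groups shared the co-culture and the shear stress. Whether each library stands for its own animal is not stated, so p-values measure no more than the spread among these samples, and part of it may be technical.

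The unfolded protein response is the cell's answer to misfolded protein in the endoplasmic reticulum (ER), where secreted and membrane proteins are folded. The kinase PERK (gene Eif2ak3), the kinase and RNase IRE1 (gene Ern1) and the membrane-bound factor ATF6 sense the load. IRE1 splices Xbp1 mRNA, and the spliced XBP1 factor, with cleaved ATF6, induces chaperones and the machinery of ER-associated degradation, which sends misfolded proteins to the proteasome. PERK phosphorylates the initiation factor eIF2 alpha, which slows translation but favours that of ATF4, a factor that induces amino acid genes and CHOP (gene Ddit3). ATF4 also answers other eIF2 alpha kinases, so its arm is not a readout of ER stress alone. Gene counts do not tell spliced from unspliced Xbp1, and they do not read eIF2 alpha phosphorylation or ATF6 cleavage.

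The promoters of the chaperone genes are shown first, because some of them carry the DNA element through which ATF6 acts. The element was described from promoters of genes of this kind, Hspa5 among them, so its presence in the chaperone arm is no independent finding. RefSeq promoters of build GRCr8 matched 26 of the 32 genes by symbol, 18 of them in the chaperone arm, 7 in the ATF4/CHOP arm and 1 a sensor. Manf, Pdia3, Pdia6, Derl1, Atf6 and Ern1 had no entry. The 250 bases before each start were searched on both strands for the ER stress element, CCAAT and CCACG with 9 bases of any kind between them, to which ATF6 is known to bind together with NF-Y. The search found it in 8 of 26 members (30.8%), all in the chaperone arm, against 22 of 33469 promoters (0.0657%). Below, capitals mark the element as it reads on the gene's own strand, and CGTGG at the left end of the capitals means that it lies on the opposite strand. Hspa5 is given over all 250 bases and the others with up to 20 bases on each side.
Hspa5 (GRCr8 chr3:38452766-38453015, plus strand): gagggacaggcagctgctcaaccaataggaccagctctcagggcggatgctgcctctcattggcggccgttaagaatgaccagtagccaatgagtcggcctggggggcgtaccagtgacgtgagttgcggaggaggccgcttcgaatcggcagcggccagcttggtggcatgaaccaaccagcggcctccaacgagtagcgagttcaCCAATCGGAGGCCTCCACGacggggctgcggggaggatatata
Xbp1 (GRCr8 chr14:84604538-84604596, plus strand): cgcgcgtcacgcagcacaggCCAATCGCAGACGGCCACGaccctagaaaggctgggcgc
Hsp90b1, distal (GRCr8 chr7:23012431-23012489, minus strand): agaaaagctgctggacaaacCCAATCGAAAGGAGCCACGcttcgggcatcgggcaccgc
Hsp90b1, proximal (GRCr8 chr7:23012327-23012385, minus strand): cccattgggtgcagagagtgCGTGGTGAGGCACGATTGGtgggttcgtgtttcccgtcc
Dnajc3 (GRCr8 chr15:102432514-102432572, plus strand): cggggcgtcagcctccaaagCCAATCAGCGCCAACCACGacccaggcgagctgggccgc
Creld2 (GRCr8 chr7:121789219-121789277, plus strand): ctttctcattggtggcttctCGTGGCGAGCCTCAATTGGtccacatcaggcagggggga
Calr (GRCr8 chr19:40213117-40213173, plus strand): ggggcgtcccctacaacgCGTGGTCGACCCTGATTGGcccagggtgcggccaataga
Canx (GRCr8 chr10:35158049-35158107, minus strand): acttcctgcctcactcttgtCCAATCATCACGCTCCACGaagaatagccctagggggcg
Derl3 (GRCr8 chr20:12766581-12766639, minus strand): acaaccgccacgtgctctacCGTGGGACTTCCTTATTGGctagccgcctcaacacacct

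The XBP1 element TGACGTGG was in 1 of 26 members (3.85%) and in 174 of 33469 promoters (0.52%). Its reverse complement shares the letters CCACG with the end of the ER stress element, but no member held both. The C/EBP-ATF element TGATGNAA, the kind of site through which ATF4 acts, was in 3 of 26 members (11.5%) and in 1139 of 33469 promoters (3.4%). It lay in Trib3 and Chac1 of the ATF4/CHOP arm and in Herpud1 of the chaperone arm. The matches are shown in capitals, on the opposite strand for the C/EBP-ATF element. A match describes these letters and is not a measured binding site.
Hyou1 (GRCr8 chr8:53602671-53602718, plus strand): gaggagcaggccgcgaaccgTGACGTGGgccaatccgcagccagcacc
Trib3 (GRCr8 chr3:161275534-161275574, minus strand): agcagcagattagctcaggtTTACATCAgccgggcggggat
Chac1 (GRCr8 chr3:126795944-126795991, plus strand): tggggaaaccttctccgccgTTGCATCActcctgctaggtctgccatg
Herpud1 (GRCr8 chr19:10614864-10614911, minus strand): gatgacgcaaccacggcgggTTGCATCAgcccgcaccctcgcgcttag

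The libraries differed in depth and in their content of other cell types, and these values bear on every comparison of the pressures. Totals ran from 8925149 to 24025406 counts, and between 10234 and 17189 genes had a count. A hepatocyte marker list of 22 genes summed to 477, 814 and 74489 CPM (counts scaled to a common library size) in pathological replicates 1, 2 and 3, and to 313, 53447 and 37439 CPM in physiological replicates 1, 2 and 3. Libraries under 10000 CPM of this list are called poor in hepatocyte transcripts (pathological 1 and 2, physiological 1) and the other 3 rich in them. Stab2 and Lyve1, scavenger and hyaluronan receptors that define sinusoidal endothelium, were low in the poor libraries, with Stab2 at 2.78 and 15.2 CPM in pathological replicates 1 and 2 and at 8.06 CPM in physiological replicate 1, against 172 to 207 CPM in the rich libraries. The whole sinusoidal list of 12 matched genes summed to between 512 and 7498 CPM in pathological and between 2027 and 7086 CPM in physiological libraries, with no gene at 0. The endothelial cadherin gene Cdh5 lay between 183 and 319 CPM in all 6. Of 12 matched endothelial markers, 11 had a count in every library, and the list summed to between 841 and 2342 CPM in pathological and between 1767 and 2985 CPM in physiological libraries. Stellate cell markers (14 matched) summed to between 436 and 1900.2 CPM in pathological and between 704 and 1562 CPM in physiological libraries, and the list was highest in pathological replicate 3. Their defining gene Pdgfrb, at 0.498, 0.896 and 0 CPM in pathological and 4.36, 18.03 and 60.9 CPM in physiological libraries, was lower in every pathological library. Macrophage markers (16 matched) summed to 45.7 CPM in pathological replicate 2 and to between 921 and 1608 CPM in the other libraries, and the Kupffer cell gene Clec4f was present in all 6. Transcripts of the mitochondrial genome summed to 4384, 3347 and 44763 CPM in pathological and to 12416, 36568 and 167288 CPM in physiological libraries. The part of these differences in the results was not tested, and in bulk RNA fewer cells of a type and less RNA per cell cannot be told apart.

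No member passed the test of pathological against physiological pressure. By the quasi-likelihood test of edgeR, Benjamini-Hochberg adjusted over 12742 genes, 0 of 32 members had an adjusted p under 0.05, where 0.0% of all genes did, and the adjusted p of every member was 1. Members with an unadjusted p under 0.05 also numbered 0, against 33 genes or 0.259% of all genes. DESeq2 (0.00785% of all genes called) and limma-voom (0.0% called) called 0 members too, with 0 members at an unadjusted p under 0.05 in both. The fold changes, which are pathological over physiological throughout, were positive for 25 of 32 members, where 52.5% of all genes were positive. Their median was 0.43 on the log2 scale, and that of all genes was 0.05. All 32 genes passed the low-count filter, so none is missing from these counts. The fit's 95% confidence intervals covered 0 for each of the 32.

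**Figure D1:**
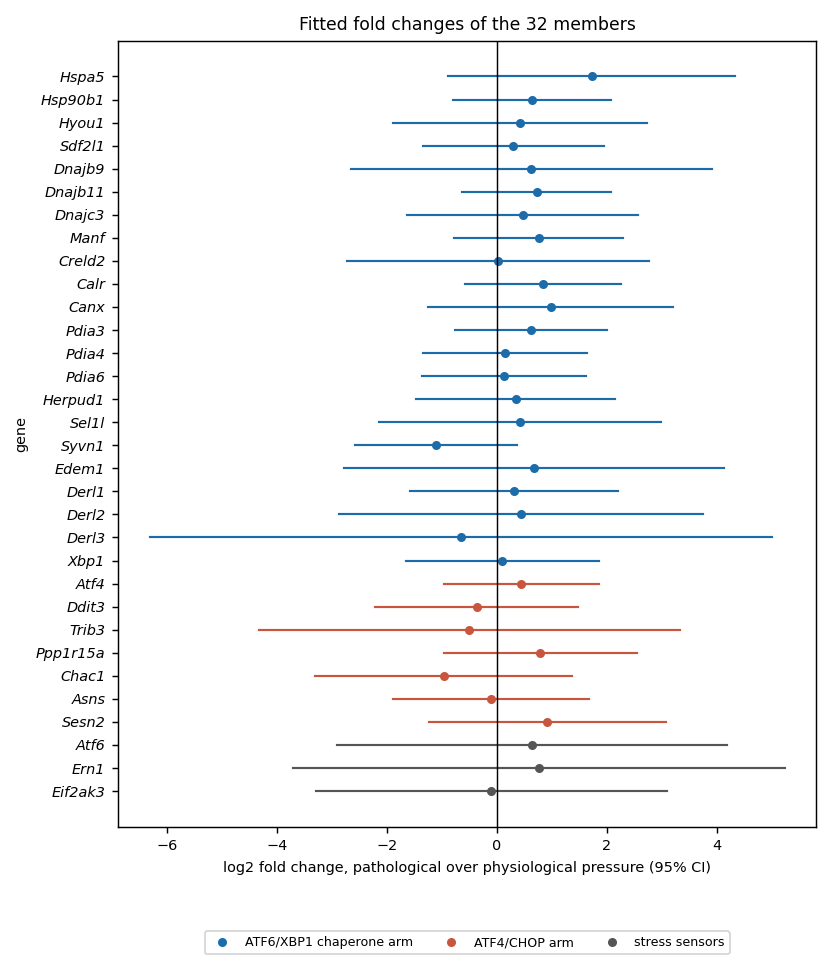
Log2 fold change of each of the 32 genes, pathological (12 mmHg) over physiological (1 mmHg) pressure, on the horizontal axis; points are edgeR estimates and lines 95% confidence intervals from 3 libraries per pressure, coloured by arm. All 32 intervals include 0, and in the chaperone arm 20 of 22 points lie to the right of it.

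The chaperone arm lay mostly on the higher side in the fit. Fold changes were positive for 20 of its 22 genes and negative for the other 2, and their median was 0.43. These counts rested on single libraries, with 12 of 22 positive and a median of 0.14 without physiological replicate 3, and 15 of 22 and 0.16 without pathological replicate 2. Without pathological replicate 3 the median was 0.82 and without physiological replicate 1 it was 0.93, while with the rich libraries alone 10 of 22 were positive and the median was -0.16. With all libraries, all 9 ER chaperones and co-chaperones were positive (median 0.63), as were all 5 lectin chaperones and disulfide isomerases (median 0.62). Genes of ER-associated degradation were positive in 5 of 7 cases, with a median of 0.34. Without pathological replicate 2, 6 of the 9 were positive (median 0.09) and 4 of the 5 (median 0.17). With the rich libraries alone it was 4 of the 9 (median -0.28) and 3 of the 5 (median 0.19). Over all 6 libraries the ATF4/CHOP arm had 3 positive and 4 negative genes and a median of -0.10. That median was 0.43 without physiological replicate 1, 0.34 without physiological replicate 3 and 0.19 without pathological replicate 3. Without physiological replicate 3 it thus lay above the chaperone median of 0.14. Leaving out any other single library kept it negative, between -0.26 and -0.06. Groups without overlap in CPM were found for 3 of 32 members, against 4.61% of all genes. Calr and Dnajb11 were higher in every pathological library, as were 1.55% of all genes, and Syvn1 was lower in every one, as were 3.05% of all genes.

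**Figure D2:**
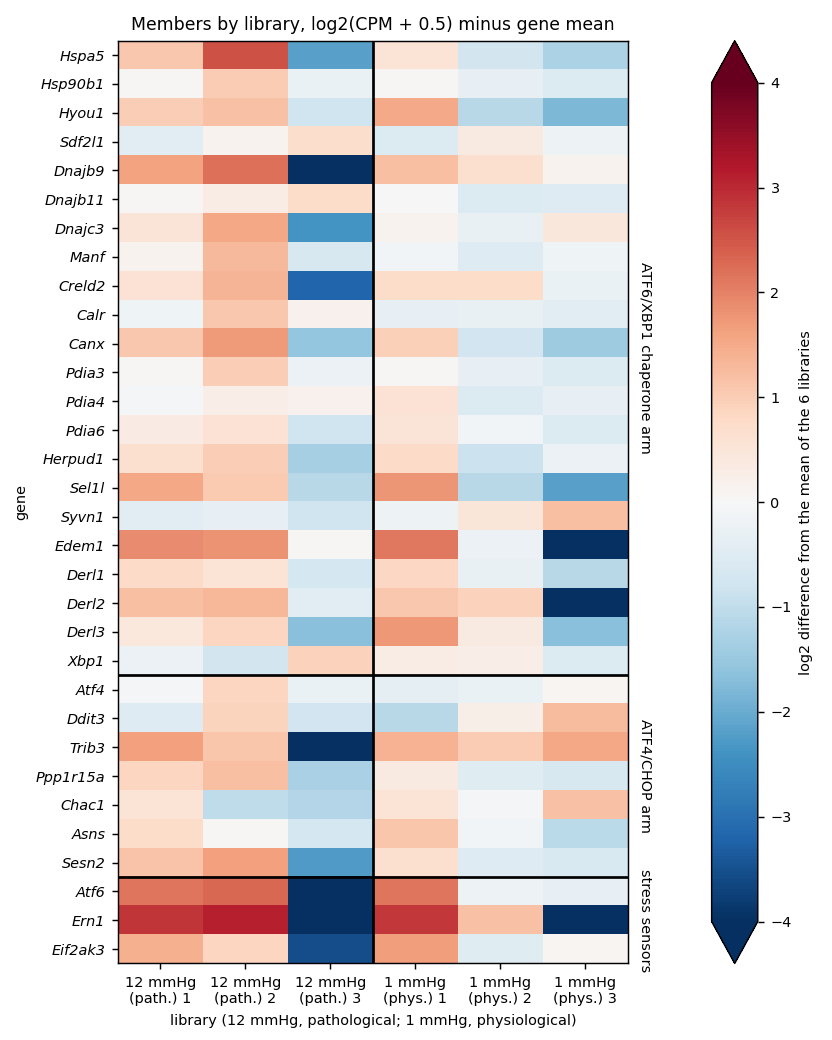
Each row is a gene and each column a library (12 mmHg, pathological, on the left; 1 mmHg, physiological, on the right); colour is log2(CPM + 0.5) minus the gene's mean over the 6 libraries, and colours stop at 4 either way. Pathological 1, pathological 2 and physiological 1 are red for most genes, and the darkest blue cells, such as Trib3 and the 3 sensors, stand mainly in pathological 3.

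Hspa5 encodes BiP, the main HSP70 chaperone of the ER, which also holds the stress sensors inactive when unbound to clients. It measured 3702, 10338 and 396 CPM in pathological replicates 1, 2 and 3, against 2580.4, 1054 and 737 CPM in physiological replicates 1, 2 and 3. The highest and the lowest of the 6 values both came from pathological libraries, 26.1-fold apart, and the groups overlapped. The means were 4812 ± 5063 CPM at pathological and 1457 ± 986 CPM at physiological pressure (SD, n = 3 each), a log2 fold change of 1.72 (95% CI -0.89 to 4.33, edgeR unadjusted p = 0.166). Its counts ran from 4194 to 219179 per library, so counting error was small beside this spread. Among the poor libraries, pathological replicates 1 and 2 stood 1.43 and 4.01 times above physiological replicate 1. The log2 fold change was 0.50 without pathological replicate 2, so its size rested largely on that library. With a term for hepatocyte content, fitted over all 6 libraries, it was 0.63. It was 2.27 without pathological replicate 3 (edgeR adjusted p = 0.858), 2.52 without physiological replicate 1 and -1.17 with the rich libraries alone.

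The other ER chaperones varied less than Hspa5 in absolute terms, and most were highest in pathological replicate 2. Hsp90b1, which encodes the HSP90 of the ER (GRP94), measured 1069, 2095 and 853 CPM in pathological libraries and 1052, 827 and 710.0 CPM in physiological libraries, a log2 fold change of 0.63. Its lowest pathological value lay under its highest physiological one. Manf, a secreted ER stress protein, measured 203, 459 and 118 CPM in pathological and 172, 128 and 163 CPM in physiological libraries, a log2 fold change of 0.75 that was -0.28 with the rich libraries alone. Both genes were highest in pathological replicate 2, and without it their log2 fold changes were 0.16 for Hsp90b1 and 0.07 for Manf. Hyou1 (GRP170), a nucleotide exchange factor for BiP, was highest in the 3 libraries poor in hepatocyte transcripts, at 159.6, 182 and 45.5 CPM in pathological and 229.9, 36.9 and 22.6 CPM in physiological libraries. Creld2, an ER-resident stress protein, measured 36.9, 63.5 and 2.26 CPM at pathological and 40.9, 40.8 and 20.01 CPM at physiological pressure. Its means, 34.2 ± 30.7 CPM at pathological and 33.9 ± 12.04 CPM at physiological pressure (SD, n = 3 each), were nearly equal.

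The J-domain co-chaperones of BiP, which stimulate its ATPase, differed in pattern. Dnajb11 (ERdj3) measured 106, 127 and 173 CPM in pathological libraries, against 103, 71.4 and 72.2 CPM in physiological libraries. All 3 pathological values were above the physiological ones and the log2 fold change was 0.72 (95% CI -0.63 to 2.08, edgeR unadjusted p = 0.254). With unscaled library totals the groups of Dnajb11 overlapped, at 126, 114 and 160.3 CPM in pathological and 130.3, 72.4 and 57.0 CPM in physiological libraries. Dnajb9 (ERdj4), a marker of IRE1 and XBP1 activity, measured 163, 248 and 0.472 CPM in pathological libraries and 124, 84.0 and 59.0 CPM in physiological libraries. The value of 0.472 CPM rested on 5 counts, while the other 5 libraries had between 416 and 5263 counts. Its log2 fold change of 0.63 was -0.11 without pathological replicate 2. Dnajc3 (p58IPK), which also inhibits eIF2 alpha kinases, measured 154, 316 and 20.004 CPM in pathological and 119, 87.7 and 147 CPM in physiological libraries. Sdf2l1, a partner of ERdj3, was highest in pathological replicate 3, at 42.2, 62.7 and 94.3 CPM in pathological and 38.7, 73.4 and 50.2 CPM in physiological libraries.

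Calreticulin (Calr) and calnexin (Canx) are lectin chaperones that hold glycoproteins until they fold. Calr measured 1113, 2645 and 1401 CPM in pathological libraries, against 982, 1002 and 908 CPM in physiological libraries. The pathological values were all above the physiological ones, and this held with each of the 4 scalings tried. The means were 1719.6 ± 814 CPM at pathological and 964 ± 49.3 CPM at physiological pressure (SD, n = 3 each), a log2 fold change of 0.83 (95% CI -0.59 to 2.26, edgeR unadjusted p = 0.213). Leaving out 1 library moved that fold change between 0.38 and 1.07, the lower value without pathological replicate 2. Canx measured 1383, 2124 and 225 CPM at pathological and 1269, 380.3 and 243 CPM at physiological pressure, a log2 fold change of 0.98. Canx was high in the 3 libraries poor in hepatocyte transcripts, and its log2 fold change was 2.09 without physiological replicate 1, 0.35 without pathological replicate 2 and -0.46 with the rich libraries alone.

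The protein disulfide isomerases, which form and reshuffle disulfide bonds, overlapped between the groups. Pdia3 (ERp57), the isomerase that works with Calr and Canx, measured 667, 1281 and 543 CPM in pathological and 658, 516 and 444 CPM in physiological libraries, a log2 fold change of 0.62 that was 0.17 without pathological replicate 2. Pdia4 (ERp72) ran from 73.2 to 92.4 CPM in pathological and from 52.4 to 115 CPM in physiological libraries. Pdia6 (P5) ran from 67.1 to 174 CPM in pathological and from 80.0 to 166 CPM in physiological libraries. Of the 3, Pdia4 had the tightest pathological group, at 84.1 ± 9.87 CPM (SD, n = 3).

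**Figure D3:**
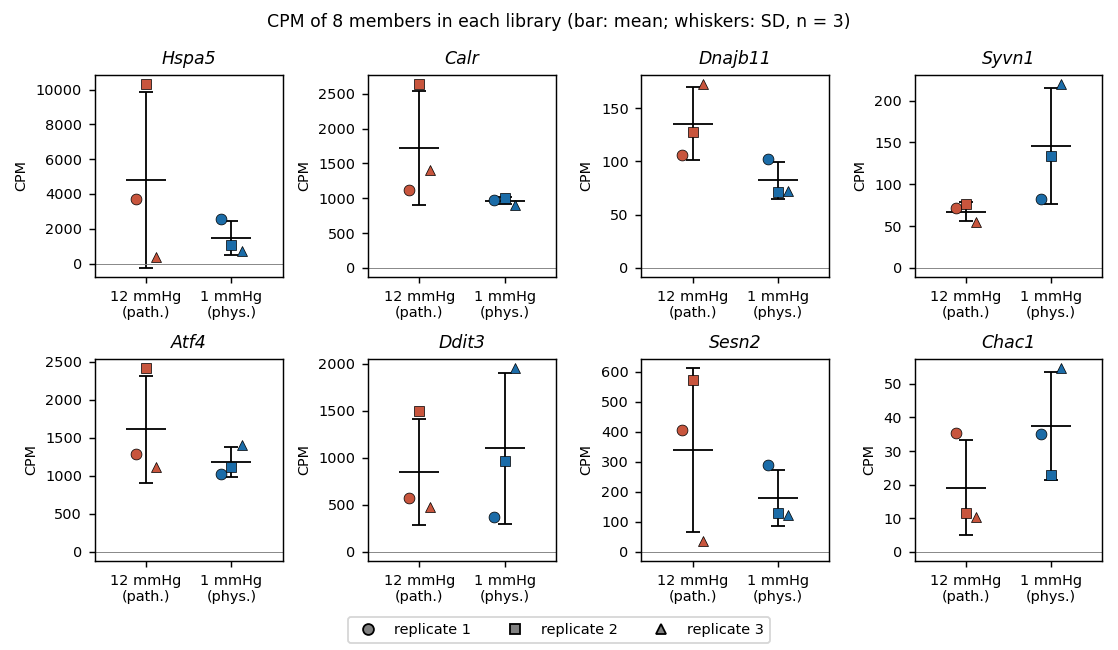
CPM (vertical axes, linear, each gene on its own scale) of 8 genes in the libraries at pathological (12 mmHg, left) and physiological (1 mmHg, right) pressure; symbols are replicates, horizontal bars means and whiskers SD of 3 libraries, which for Hspa5 reach below 0 where no CPM can lie. For Calr and Dnajb11 the pathological symbols lie above, and for Syvn1 below, all physiological ones, while the other 5 genes overlap.

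Within ER-associated degradation, Syvn1 was the one gene whose groups did not overlap. Syvn1 encodes HRD1, the ubiquitin ligase that marks misfolded proteins at the ER membrane. It measured 71.2, 75.9 and 54.4 CPM in pathological libraries, against 82.9, 134 and 220.2 CPM in physiological libraries. Every pathological value was below every physiological one, with each of the 4 scalings tried, and the log2 fold change was -1.11 (95% CI -2.59 to 0.36, edgeR unadjusted p = 0.12). Physiological replicate 1 was the lowest of its group and lay nearest to the pathological libraries. The fold change ran from -1.30 to -0.69 when 1 library was left out, and it was -0.16 with the poor libraries alone.

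Sel1l, the adaptor that holds HRD1 in its complex, measured 296, 208 and 46.6 CPM in pathological libraries and 342, 46.8 and 22.0 CPM in physiological libraries. Edem1, a lectin that hands glycoproteins to the degradation machinery, measured 143, 132 and 39.2 CPM at pathological and 165, 32.1 and 0.284 CPM at physiological pressure. Both genes were highest in the 3 libraries poor in hepatocyte transcripts, physiological replicate 1 first. Herpud1, a scaffold of the HRD1 complex, measured 185, 231 and 46.6 CPM at pathological and 202, 64.9 and 98.9 CPM at physiological pressure. The Derlins are membrane proteins of the retrotranslocation channel. Derl1 ran from 32.6 to 91.4 CPM in pathological and from 24.4 to 95.2 CPM in physiological libraries, and Derl2 from 10.8 to 37.9 CPM and from 0.426 to 31.97 CPM in the same groups. Derl3 was barely present, at 1.65, 2.41 and 0 CPM in pathological and 4.82, 1.56 and 0 CPM in physiological libraries. A count of 0 allows up to 0.283 CPM in pathological replicate 3 and up to 0.426 CPM in physiological replicate 3, for counting error only.

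Xbp1, the gene of the factor that IRE1 activates, did not share the order of Hspa5 over the libraries. It measured 48.0, 33.8 and 106 CPM in pathological libraries and 69.2, 67.7 and 38.5 CPM in physiological libraries. Pathological replicate 2, which had the most Hspa5, had the least Xbp1, and pathological replicate 3, with the least Hspa5, had the most. The groups overlapped, with a log2 fold change of 0.10 (95% CI -1.66 to 1.85, edgeR unadjusted p = 0.902). Its sign was negative with unscaled totals (-0.01) and with the poor libraries alone (-0.74).

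The mRNA of the sensors was near 0 in pathological replicate 3. Atf6 measured 376, 417 and 0.755 CPM in pathological libraries and 370.5, 73.4 and 66.6 CPM in physiological libraries. Ern1 measured 223, 266 and 0.189 CPM at pathological and 219, 68.4 and 0.852 CPM at physiological pressure. For both genes the 3 poor libraries were several-fold above the others, whichever the pressure. Eif2ak3 measured 44.5, 29.9 and 0.944 CPM in pathological and 52.7, 11.5 and 17.03 CPM in physiological libraries. The low values rested on 8, 2 and 10 counts of Atf6, Ern1 and Eif2ak3 in pathological replicate 3. The log2 fold changes of Atf6 and Ern1 were 0.64 (95% CI -2.91 to 4.18) and 0.76 (95% CI -3.71 to 5.23), and that of Eif2ak3 was -0.11 (95% CI -3.30 to 3.09), with edgeR unadjusted p of 0.69, 0.704 and 0.939. Leaving out 1 library moved the fold change of Atf6 between 0.15 and 2.03, that of Ern1 between 0.18 and 2.32 and that of Eif2ak3 between -0.81 and 0.94, the highest value each time without physiological replicate 1.

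Values near 0 of this kind were about as frequent among all genes. Of 30 members that had at least 20 CPM in every poor library, 5 lay under 1 CPM in pathological replicate 3 (Dnajb9, Trib3, Atf6, Ern1 and Eif2ak3), or 16.7%, where the share of all such genes was 18.5% of 4834. In physiological replicate 3 it was 3 of 30 (Edem1, Derl2 and Ern1), against 14.1% of all such genes. In physiological replicate 2 it was 0 of 30, against 1.97%. Pathological replicate 3 and physiological replicate 3 were the libraries with the fewest genes detected, 10234 and 10649.

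In the ATF4/CHOP arm, Atf4 itself overlapped between the groups. It measured 1294, 2421 and 1117 CPM in pathological libraries and 1028, 1123 and 1408 CPM in physiological libraries. Apart from pathological replicate 2 the values lay between 1028 and 1408 CPM. The log2 fold change was 0.44 (95% CI -0.97 to 1.86, edgeR unadjusted p = 0.493), and without pathological replicate 2 it was 0.03. ATF4 is controlled largely at translation, which these counts do not read.

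Ddit3, which encodes CHOP, a factor that promotes cell death under lasting ER stress, also overlapped between the groups. It measured 577, 1500.2 and 481 CPM at pathological pressure, against 377, 968 and 1958 CPM at physiological pressure. The highest and the lowest of the 6 values both lay in the physiological group. The log2 fold change was -0.37 (95% CI -2.22 to 1.48, edgeR unadjusted p = 0.658). With the poor libraries alone it was 1.46, with pathological replicates 1 and 2 at 1.53 and 3.98 times physiological replicate 1, and with the rich libraries alone it was -1.58. Without physiological replicate 3 it was 0.34.

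Ppp1r15a (GADD34), which brings phosphatase to eIF2 alpha and so ends the translation block, measured 1343, 1709.8 and 303 CPM in pathological and 949, 525 and 478 CPM in physiological libraries. Sesn2 (sestrin 2), a stress-induced inhibitor of mTORC1, measured 408, 573 and 37.8 CPM in pathological and 289, 129 and 122 CPM in physiological libraries. Both were above every physiological library in pathological replicates 1 and 2 and under every one in pathological replicate 3. Their log2 fold changes were 0.78 (95% CI -0.97 to 2.54) and 0.92 (95% CI -1.25 to 3.08), with edgeR unadjusted p of 0.335 and 0.358. Without pathological replicate 2 these fold changes were 0.35 for Ppp1r15a and 0.32 for Sesn2. They were 1.24 for Ppp1r15a and 1.45 for Sesn2 without pathological replicate 3, and 1.26 and 1.54 for the same genes without physiological replicate 1.

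The other 3 genes of the arm, all targets of ATF4, had negative fold changes. Chac1, which degrades glutathione and is induced by ATF4, measured 35.4, 11.5 and 10.4 CPM in pathological libraries, against 35.0, 22.9 and 54.8 CPM in physiological libraries. Pathological replicate 1 reached the physiological values and the other pathological libraries lay under them, with a log2 fold change of -0.97 (95% CI -3.31 to 1.36, edgeR unadjusted p = 0.364). Trib3, a pseudokinase that restrains ATF4 and CHOP, measured 159.9, 109 and 0 CPM in pathological libraries and 132, 102 and 148 CPM in physiological libraries. The 0 stands in pathological replicate 3, where it allows up to 0.283 CPM, and its log2 fold change of -0.50 was 0.09 without that library. Asns, the asparagine synthetase gene and a target of ATF4 in amino acid shortage, measured 141, 88.3 and 52.5 CPM at pathological and 184, 78.3 and 40.4 CPM at physiological pressure.

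The arms were then set against each other within each library. The mean of log2(CPM + 0.5) over the chaperone arm was 7.26, 7.72 and 5.77 in pathological replicates 1, 2 and 3, and 7.35, 6.54 and 5.75 in physiological replicates 1, 2 and 3. Over the ATF4/CHOP arm it was 8.32, 8.36 and 5.82 in pathological and 8.05, 7.66 and 7.94 in physiological libraries. The low chaperone value of physiological replicate 3 thus had no counterpart in its ATF4/CHOP arm, while pathological replicate 3 was low in both. The chaperone mean minus the ATF4/CHOP mean was -1.06, -0.65 and -0.05 in pathological libraries and -0.70, -1.13 and -2.20 in physiological libraries. Because gene lengths enter these levels, the sign of a library's value carries no meaning, and what is compared is its shift between libraries. The group means were -0.58 ± 0.51 at pathological and -1.34 ± 0.77 at physiological pressure (SD, n = 3 each), a difference of 0.76 on the log2 scale with overlapping groups. Trib3, 1 of the 7 ATF4/CHOP genes, was at 0 CPM in pathological replicate 3. It entered that library's mean as the added 0.5 CPM alone, which raised the library's chaperone minus ATF4/CHOP value. The group difference without Trib3 was not computed. When 1 library was left out the difference ran from 0.33, without physiological replicate 3, to 1.08, without physiological replicate 1. It was -0.15 with the poor libraries alone and 1.61 with the rich libraries alone.

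**Figure D4:**
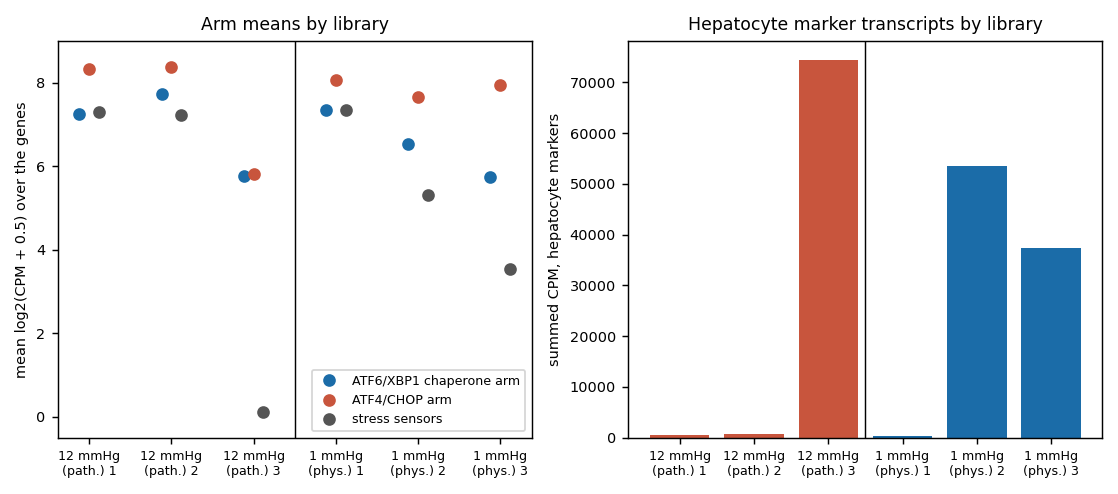
Left, mean log2(CPM + 0.5) over the genes of each arm and of the sensors in each library; right, summed CPM of 22 hepatocyte marker genes in the same libraries (linear axis from 0), pathological (12 mmHg) before physiological (1 mmHg). The chaperone arm is highest in the 3 libraries with under 10000 CPM of hepatocyte markers, and the sensors' mean is 0.11 in pathological 3.

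More members separated the libraries by hepatocyte content than by pressure. For 20 of 32 members the 3 poor libraries all lay above the 3 rich libraries, as for 30.2% of all genes, and for 0 of 32 they all lay below, as for 18.3% of all genes. The 20 comprised 14 genes of the chaperone arm, 3 of the ATF4/CHOP arm and all 3 sensors. These library classes were drawn from measured transcripts, so the counts describe the libraries and carry no test. Sinusoidal, stellate and mitochondrial genome sums were also lower in every poor library than in every rich one, and depth was higher. Endothelial and macrophage sums overlapped between the classes. The part of these differences was not tested.

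Within the poor libraries, both pathological libraries stood above physiological replicate 1 for 17 of 32 members, where 30.6% of all genes did, and both stood below it for 10 of 32, where 41.2% did. The 17 included 7 of the 9 ER chaperones and co-chaperones and 4 of the 7 genes of the ATF4/CHOP arm. Of the degradation genes, 1 of 7 was above and 5 of 7 were below. Pathological replicate 2 held the highest value of all 6 libraries for 17 members and physiological replicate 1 for 8. The shares of all genes that did so are not given here. With 1 physiological library in this class, whose spread had to be taken from the other libraries, edgeR called 0 of 32 members, as 0.0% of 15044 genes.

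Within the rich libraries, pathological replicate 3 lay above both physiological libraries for 9 of 32 members (28.5% of all genes) and below both for 18 of 32 (33.9% of all genes). None of the 7 ATF4/CHOP genes was above and 6 were below. Hsp90b1, Sdf2l1, Dnajb11, Calr and Pdia3 were higher at pathological pressure within both classes, 5 of 32 members where 7.59% of all genes were. In that order, pathological replicate 1 was 1.02, 1.09, 1.04, 1.13 and 1.01 times physiological replicate 1, so the smallest of these ratios depend on the scaling. With unscaled totals Dnajb11 was lower in pathological replicate 1, at 126 against 130.3 CPM. Syvn1 and Eif2ak3 were lower within both classes, 2 of 32 where 12.9% were. In the rich libraries edgeR called Trib3, Dnajb9 and Atf6 lower (edgeR adjusted p of 2.48e-12, 0.002 and 0.00667), 3 of 32 members against 1.93% of 12652 genes. These calls compare 1 pathological library, with 0, 5 and 8 counts of the 3 genes, to the spread of 2 physiological libraries, and over all 6 libraries none of the 3 passed.

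Other genes of the pathway showed no call either. Of 156 further genes in 6 lists, 146 were tested, and 0 passed edgeR's adjusted threshold, with 0 at an unadjusted p under 0.05. Genes of ER folding outside the list were positive in 22 of 29 cases (median 0.28), genes of ER translocation and N-glycosylation in 17 of 26 (median 0.26) and further degradation genes in 15 of 21 (median 0.27). ER stress transcription factors and regulators were positive in 12 of 19 cases (median 0.17), further ATF4 targets in 27 of 37 (median 0.40), and eIF2 kinases, phosphatase and eIF2B subunits in 11 of 14 (median 0.37). The median of all genes was 0.05, so in this fit these lists lay on the same side of it as the chaperone arm. The wider ATF4 targets did not share the negative median of the 7-gene arm there. With the poor libraries alone their median was -0.15 and that of the 7-gene arm 0.69, beside -0.10 for all genes. With the rich libraries alone these medians were -0.21, -1.58 and -0.58. The further degradation genes had medians of 0.16 with the poor and -1.04 with the rich libraries alone.

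The groups did not overlap for 5 of the 146 genes on the higher side (1.55% of all genes), which were Traf2, Ssr2, Eif2b3, Rpn2 and Sec11a. On the lower side it was 2 of 146 (3.05% of all genes), Pck2 and Eif2b5. Rpn2, Sec11a, Pck2 and Eif2b5 are named because of this count, after their values were seen. The genes with the smallest unadjusted p in these lists were mixed in direction. Traf2, an adaptor that links IRE1 to kinase signalling, measured 59.3, 98.5 and 109 CPM in pathological libraries, against 45.3, 56.4 and 28.4 CPM in physiological libraries, without overlap. Ssr2, a subunit of the translocon-associated complex, measured 84.9, 116 and 107 CPM at pathological and 65.4, 81.7 and 24.4 CPM at physiological pressure, also without overlap. Its partner Ssr4 had a negative fold change, at 61.9, 64.5 and 38.4 CPM in pathological and 60.2, 119 and 208 CPM in physiological libraries, with overlap. Ddit4, an ATF4-induced inhibitor of mTORC1, measured 101, 253 and 29.2 CPM in pathological and 74.6, 50.5 and 18.3 CPM in physiological libraries. Atf5, a factor of the same response, measured 88.9, 176 and 258 CPM at pathological and 67.3, 129 and 109 CPM at physiological pressure. Eif2b3, a subunit of the exchange factor that phosphorylated eIF2 blocks, measured 72.0, 96.9 and 74.2 CPM in pathological and 69.4, 38.7 and 48.7 CPM in physiological libraries, again without overlap. Eif2s1, which encodes eIF2 alpha, measured 229.7, 478 and 61.0 CPM at pathological and 176, 153 and 119 CPM at physiological pressure. The edgeR unadjusted p of these 7 genes ran from 0.119 to 0.365. In the folding and degradation lists, Fkbp7, Pdia5, Erlec1 and Rnf5 had the smallest p, and Fkbp7 and Rnf5 were high in pathological replicate 3 alone, at 40.2 and 171 CPM. Itpr1, an ER calcium channel, was at 0 in that library.

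The promoter elements shown above can be set beside these values. The 8 members that hold the ER stress element include the genes of BiP, GRP94, calreticulin, calnexin and XBP1. Their fold changes were positive in 7 of 8 cases with a median of 0.55, next to 0.43 for the whole chaperone arm. Levels ranged from Derl3, at 0 in 1 library of each group, to Hspa5, at up to 10338 CPM. Within the rich libraries, pathological replicate 3 lay below both physiological libraries for Hspa5, Dnajc3, Creld2 and Canx. It lay above both for Hsp90b1, Calr and Xbp1. The part of the element was not tested. Of the 3 members with the C/EBP-ATF element, Herpud1 had a positive and Trib3 and Chac1 negative fold changes, that of Trib3 being positive without pathological replicate 3.

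**Figure D5:**
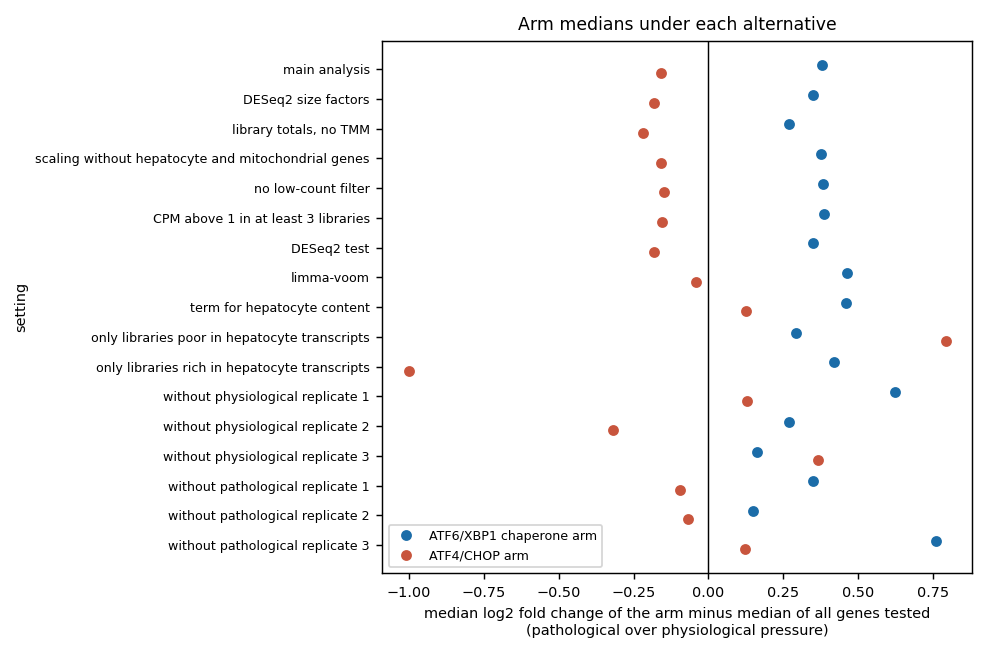
Median log2 fold change (pathological over physiological) of each arm minus the median of all genes tested, on the horizontal axis, for the main analysis and 16 alternatives. The chaperone arm stays right of 0 in all rows, and the ATF4/CHOP arm lies at 0.79 with the poor libraries alone and farthest left of 0 with the rich libraries alone.

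Across the alternatives the chaperone arm kept a median above that of all genes, by between 0.15 and 0.76 on the log2 scale, whereas the ATF4/CHOP arm lay on either side. Of the 32 members, 6 kept the sign of their fold change in all 16 alternatives. These were Hsp90b1, Dnajb11, Calr and Pdia3 on the positive and Syvn1 and Chac1 on the negative side. The share of all genes that did so is not given here, so 6 of 32 cannot be called many or few. The alternatives share most of their libraries, so the count describes stability to the processing and is not replication.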

How the data were processed

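RNA was sequenced in 6 libraries, 3 at 12 mmHg and 3 at 1 mmHg, grouped by the labels' group field; replicates were numbered in deposition order, and no label pairs them. The authors deposited expected counts per gene, which are estimated and not normalized, per the file headers. The submitters' processing notes name 3 tools without a version (RSEM, STAR and limma). The build, the annotation and the strand setting were not given in the sources used here. Reads shared by similar genes are divided among them (between 4.33% and 10.4% of values were not whole), so paralogs and overlapping genes are uncertain.

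Counts were rounded and tested with the quasi-likelihood test of edgeR 4.0.16 in R 4.3.3. The settings were TMM scaling, filterByExpr, no covariate, two-sided p-values and a Benjamini-Hochberg threshold of 0.05 over 12742 genes. The procedure was first run on simulated counts whose spread between libraries was far smaller than in these data. That run checked the code and does not show the power of the test here. CPM used TMM-scaled totals, marker sums unscaled totals. Alternatives used DESeq2 1.42.0, limma 3.58.1, other scalings and filters, a term for hepatocyte content, library subsets and leaving out each library. No 2 libraries agreed within sampling noise (chi-square per degree of freedom at least 74.9). The smallest value was that of pathological replicate 1 with physiological replicate 1, whose log2 CPM correlated at r = 0.97. Between libraries of the same pressure r ran from 0.431 to 0.897. Whether libraries of different pressures share an isolation or a run is not stated. The biological coefficient of variation was 1.39.

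The members and lists were chosen with earlier results of these data known. Named genes were the sensors, factors and Hspa5, members whose groups did not overlap, the 4 with the smallest p per arm, and 2 genes per further list; Hsp90b1, Manf, Canx, Pdia3, Dnajb9 and Trib3 were given fold changes after their values were seen. Of 156 further symbols, 139 matched directly, 11 through RefSeq synonyms and 6 not at all. Protein sequences were not used here.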

Additional observations from a re-analysis of the deposited data

How the results depend on the processing

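With 3 libraries per pressure, the standard errors of the members' log2 fold changes ran from 0.59 to 2.46 (median of all genes tested 1.72), and differences of the size seen here could not be told from the spread. Low counts in 1 library limit several members further, and the part of depth was not tested. No paired analysis was possible because the labels give no replicate numbers, and no sample number in them recurs between the groups.

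Over 16 alternatives, edgeR's count of genes past the threshold was 0 except with the rich libraries alone (244, of which 3 members), and DESeq2, run on all 6 libraries, called 1. Leaving out 1 library left edgeR's count at 0. The ATF4/CHOP median was -1.58 with the rich and 0.69 with the poor libraries alone, and it ran from -0.26 to 0.43 when 1 library was left out. The chaperone median was -0.16 with the rich and 0.20 with the poor libraries alone and 0.14 to 0.93 when 1 library was left out. These moves were smaller than 0.92, the pooled SD of the arm's mean log2 level between libraries of one group. That SD is of levels and not of fold changes, and it exceeds the median itself, so it does not show that the median was stable. The chaperone minus ATF4/CHOP difference was -0.15 with the poor and 1.61 with the rich libraries alone, 0.33 to 1.08 when 1 library was left out and 0.64 to 0.88 with pseudocounts of 2 and 0.1 CPM. Trib3, at 0 CPM in pathological replicate 3, enters each of these values that includes that library. Among the members with a fold change in the text, signs reversed as follows, and the cause was not tested. With the rich libraries alone the log2 fold change was -1.17 for Hspa5, -7.20 for Dnajb9, -0.28 for Manf, -0.46 for Canx, -0.16 for Atf4, -0.71 for Ppp1r15a, -1.71 for Sesn2, -6.50 for Atf6 and -7.44 for Ern1. With the poor libraries alone it was -0.74 for Xbp1, 1.46 for Ddit3 and 0.0413 for Trib3. With a term for hepatocyte content it was -1.76 for Dnajb9, -0.11 for Sesn2, -1.98 for Atf6 and -1.70 for Ern1. With limma-voom it was -0.36 for Dnajb9, -0.32 for Xbp1, -0.38 for Atf6 and -0.0188 for Ern1. With unscaled totals it was -0.014 for Xbp1. With 1 library left out it ran from -0.11 to 1.22 for Dnajb9, from -0.51 to 0.39 for Xbp1, from -1.05 to 0.34 for Ddit3, from -1.21 to 0.0941 for Trib3 and from -0.81 to 0.94 for Eif2ak3. Over all 32 members, the number with the sign of the main analysis was lowest at 17 with the rich libraries alone.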

Other observations

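Outside the 32 genes, 7 tested genes hold the ER stress element in the same promoter window. Of these, 6 had positive fold changes (pathological over physiological), with a median of 0.59 on the log2 scale, beside 7 of 8 and 0.55 for the members that hold it and 0.05 for all genes tested. The XBP1 element was in the window of 74 tested genes outside the list, 40 of them positive with a median of 0.12, and the C/EBP-ATF element in that of 157, with 91 positive and a median of 0.16. These counts were made after the values were seen and carry no test.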
